A study of Sus scrofa with 70 samples.

Results

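The isoforms described here are spliced transcripts of annotated pig genes that carry at least 1 intron outside the usual splice-site motifs. They were taken from the Iso-seq table by 3 labels of the SQANTI3 isoform classifier: NNC (the class for an isoform of a known gene that uses a donor or acceptor site absent from the annotation), splice sites not all canonical, and nonsense-mediated decay (NMD, the pathway that removes transcripts with early stop codons) predicted false. A canonical intron was GT-AG, GC-AG or AT-AC, read as its first and last bases on the transcript strand. The rule gave 5576 of 110996 isoforms (5.02%), from 2914 genes, of which 1835 genes had 1 such isoform. A further 4617 noncanonical NNC isoforms had NMD predicted true and 988 had no coding sequence, and these were left out. No measured level entered the rule. The 33150 NNC isoforms with only canonical introns and NMD predicted false served as the comparison, so the noncanonical isoforms were 14.4% of the NNC isoforms with NMD predicted false.

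The samples came from boars aged 12 months of 2 pig breeds, the Diannan small-ear pig (DSE) and the Banna mini-pig inbred line (BMI), which was derived from it. The 5 glands were the testis, the epididymis and the 3 accessory glands (vesicular, prostate and bulbourethral), and the labels name no treatment or genetic change. Each breed and gland had 1 Iso-seq library, in which full-length cDNAs were read as single molecules, and 3 RNA-seq libraries, in which short reads were assigned to isoforms and given as TPM, a level per transcript length scaled to the same total in each library. The BMI pigs are an inbred line, and nothing in the labels says whether libraries with the same replicate number shared an animal or came from separate animals, so p-values measure the spread between these samples.

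Most introns are removed by the major spliceosome, whose U1 and U2 particles recognise a GT donor and an AG acceptor, and a small class with AT-AC or GT-AG ends is removed by the minor spliceosome. XBP1 is the well-known exception in animals: its intron is cut in the cytoplasm by an endonuclease with no spliceosome. Sequencing of cDNA can also give apparent introns. When reverse transcriptase pauses at one copy of a short direct repeat and resumes at another, the bases between the copies are lost from the cDNA, and SQANTI3 marks an isoform whose junction is flanked by such a repeat as possible reverse transcriptase template switching (RTS).

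The ends of 8 noncanonical introns are shown because the results below turn on them, or because they show the kinds of sequence found at these junctions. Each line gives 28 bases in the direction of transcription, read from RefSeq's copy of the Sscrofa11.1 genome. Capitals mark the first 2 bases of the intron in a donor line, and its last 2 bases in an acceptor line.
ADAM7 donor: gaaactaccttaaagCGtttttcagctt
ADAM7 acceptor: aactaccttaaAGcgtttttcagcttgg
CKM donor: acaggtgtggacaacCAggtaagcctcc
CKM acceptor: acccccatcccTGccaggtcaccccttc
AKAP1 donor: gctccggcagattcgGTgagtcggcgct
AKAP1 acceptor: gctttcctttcTAgtctgactttgtgac
DGCR2 donor: ctgtccgcttcagcaGTaagttgcagac
DGCR2 acceptor: ctccgtccttcATgtttcctagggaagt
RNF40 donor: ccaacgagcaggcggGGatgtggtgggg
RNF40 acceptor: tgttctcttccAGggcccatcaacaggg
PRRC2B donor: cagcagcagcagcagCAgcagcagcagg
PRRC2B acceptor: tcttcctggtcAGgagcagctgtacaag
MANSC1 donor: ccccgctttcccgggGCaaggctccctt
MANSC1 acceptor: aatagtttagtGAgcgacgtacatttcc
XBP1 donor: tagtcctccttaaatATtagttcttcta
XBP1 acceptor: tttctgtcctcAGgaaactgaaaaacag

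On Sscrofa11.1, the ADAM7 intron was chr14:8503543-8532787 on the plus strand and 29245 bp long. The bases around its donor were the same as those around its acceptor, within an exact direct repeat of 3042 bp. Both ends can be slid together along this repeat, so CG-AG is not the only placement that gives this isoform sequence. The CKM intron, chr6:51711190-51712233 on the minus strand, began and ended 3 bases from annotated sites. The AKAP1 intron, chr12:33407120-33407789 on the plus strand, was itself annotated, with GT-TA ends. The DGCR2 intron, chr14:50898893-50900349 on the minus strand, ended 4 and 9 bases from an annotated donor and acceptor. The RNF40 intron, chr3:17629124-17630181 on the minus strand, used an annotated AG acceptor with a GG donor 4 bases from an annotated one. The PRRC2B intron, chr1:271399997-271402413 on the plus strand, began within a run of CAG triplets, 12 bases from an annotated donor, and ended at an annotated acceptor. The MANSC1 intron, chr5:60082468-60082567 on the plus strand, was 100 bp long and lay inside 1 annotated exon. The intron of XBP1 PB.6095.7, chr14:46015233-46015743 on the minus strand, joined an unannotated AT donor to an annotated AG acceptor and was 511 bp long, so it is not the far shorter intron that is cut in the cytoplasm.

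Introns could be read from the genome for the 5496 isoforms on numbered or sex chromosomes, and not for the other 80. All 5496 had at least 1 noncanonical intron and none of the 32769 comparison isoforms on these chromosomes had any, so the labels and the genome gave the same classes. Of the 5496, 4645 (84.5%) had exactly 1 noncanonical intron, and their other introns were canonical. The isoforms held 6309 distinct noncanonical introns, of which 5902 occurred in 1 isoform and 407 in more than 1. The ADAM7 intron was the most shared, in 32 isoforms.

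No motif dominated. All 253 noncanonical motifs occurred, and the most frequent, GG-AG, had 244 introns (3.87%), followed by GA-AG with 200 and GT-TG with 197. Motifs that differed from a canonical one by 1 base held 30.9% of the introns, while they make up 30 of the 253 motifs (11.9%). A GT donor was kept by 14% and an AG acceptor by 22.5%, and 63.5% had neither. CT-AC, the motif that a GT-AG intron shows when it is read on the opposite strand, had 32 introns (0.507%).

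The introns mostly lay away from annotated splice sites. Neither end was annotated in 81.8% of them (95% Wilson interval 80.8 to 82.7), against 23.1% of the 34157 unannotated introns of the canonical isoforms. Both ends lay in annotated exons in 34.6%, against 4.99%, and both lay in the same exon in 12.7%, against 3.16%. Both ends were within 10 bp of annotated sites in 14.1%, against 10.4%. Isoforms with such an intron numbered 1084 (19.7%), and 18 of the 55 isoforms with at least 100 full-length reads (32.7%). An intron of this kind that missed the annotated site at 1 end or both was found in 939 (17.1%) and in 16 of the 55 (29.1%), and one with both ends at annotated sites, as in AKAP1, in 150 (2.73%) and in 2 of the 55. Introns shorter than 30 bp numbered 85, against 3 of the canonical ones. The median length was 1940 bp against 2632 bp.

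Long direct repeats at the 2 ends of the intron were more frequent than in canonical introns, while the median repeat was 2 bp in both. An exact repeat of at least 6 bp was found in 19.0% of the noncanonical introns (interval 18.0 to 19.9) and in 2.71% of the unannotated canonical ones. A repeat of at least 8 bp was found in 6.01% against 0.515%. At 3.15% of the noncanonical introns the repeat allowed the same isoform to be written with a canonical motif by sliding both ends together. These intervals cover counting error only, and the repeat is a description of the genome, not of what happened in a given molecule.

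The RTS mark was carried by 688 of the 5576 isoforms (12.3%) and by 4.21% of the canonical isoforms. In the 10 Iso-seq libraries the marked share was 8.39 percentage points higher among the noncanonical isoforms with reads there (SD 1.31, range 6.49 to 10.6, higher in 10 of 10, exact sign-flip test, two-sided, p = 0.00195, the smallest that 10 libraries allow). The mark is fixed for each isoform and the same isoforms recur across libraries. The 10 differences are therefore not independent and largely restate the shares over all isoforms, and the p-value does not cover isoforms. The mark and the repeat measured here are related by construction, since SQANTI3 looks for a repeat: a repeat of at least 6 bp was present in 53.4% of the 672 marked isoforms whose introns were read and in 17.2% of the 4824 unmarked ones. Most of the noncanonical isoforms carried neither the mark nor a long repeat.

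**Figure D1:**
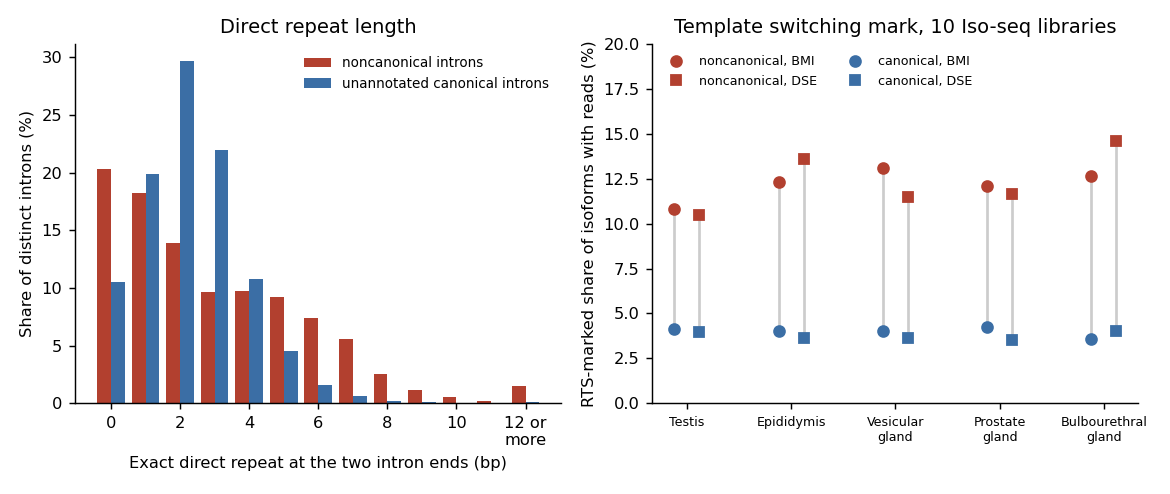
Left, share of distinct introns (%) by the length in bp of the exact direct repeat at their ends, for noncanonical introns (red) and unannotated introns of canonical isoforms (blue). Right, share of isoforms with reads that carry the RTS mark (%) in each of 10 Iso-seq libraries, circles BMI and squares DSE; the noncanonical isoforms lie at 10.5% to 14.6% and the canonical isoforms at 3.53% to 4.25%.

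Few full-length reads stood behind most of the isoforms. The median was 2 reads against 3 for canonical isoforms, and 2 was the lowest in the table. Isoforms of 2 reads made up 59.9% (interval 58.6 to 61.2) against 37.8%, and isoforms of over 10 reads 8.09% against 21.0%. Reads came from both breeds for 52.3% of the isoforms and 66.0% of the canonical ones. Among the 3341 isoforms with 2 reads, 1197 (35.8%) had 1 read from each breed, against 36.6% of the canonical isoforms with 2 reads. The ends of the transcripts did not set the classes so far apart: a polyadenylation motif was present in 84.6% against 82.3%, and 74.1% against 66.6% started at an annotated transcript start. In all, the isoforms took 53581 full-length reads (1.54%), and 1 isoform of ADAM7 alone took 8261 of them.

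The isoforms with most reads, taking 1 for each of 10 genes with a symbol, differed widely in how their reads were spread. ADAM7, a membrane protein of the epididymal epithelium that is passed to sperm, came first with PB.5719.3. This isoform had 8086 reads in the BMI epididymis, 171 in the DSE epididymis and 4 in the BMI vesicular gland. Its TPM was 225, 1046 and 243 in the BMI epididymis libraries and 0, 136 and 857 in the DSE ones, and it was 0 in all 24 libraries of the other glands. The gene had 42 noncanonical isoforms, more than any other gene, with 9300 reads, of which 99.5% came from epididymis. The 32 that shared the intron with the 3042-bp repeat held 9160 of these reads. The motif of that intron depends on where its ends are placed within the repeat. Whether another placement has canonical ends is not given for this intron. Only 6 of the 42 carried the RTS mark, and PB.5719.3 did not.

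CKM, the creatine kinase of skeletal muscle, had 1267 reads for PB.15782.1, and 1265 of them came from the BMI bulbourethral library. The isoform carried the RTS mark. Its TPM in the bulbourethral gland was 45.1, 0.364 and 0.0691 in BMI and 0, 2.82 and 160 in DSE, and this gland was not called (1.40, SE 0.84, adjusted p from limma 0.200). It was called higher in epididymis (2.81, SE 0.84, adjusted p from limma 0.0101, and 2.44 with 0.151 without replicate 2), where it had 92.8, 2.49 and 2.69 TPM in BMI and 0.843, 80.8 and 23.5 in DSE. The summed TPM of 4 skeletal muscle genes found of 6 listed, CKM included, was 353 and 1156 in the 2 highest of these libraries and at most 20.3 in the other 4. In the 3 epididymis libraries with 92.8, 80.8 and 23.5 TPM it was 562, 99.0 and 28.5, and at most 4.41 in the others, and the part of muscle in this isoform's level was not tested.

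The others in the first 10 had reads in all 10 Iso-seq libraries, except that of AKAP1. COL6A1, a chain of collagen VI, had 989 reads for PB.5665.1 and 94.4% of the reads of its gene. AKAP1, which anchors protein kinase A at mitochondria, had 968 reads for PB.3655.40, of which 394 came from the BMI testis and 569 from the DSE testis. DGCR2, a membrane receptor-like protein, had 959 for PB.6174.26, and RNF40, part of the ligase that ubiquitinates histone H2B, had 808 for PB.11791.1. BCL2L13 of the BCL2 family had 698 for PB.14846.48 and CYFIP1, a subunit of the actin-regulating WAVE complex, 574 for PB.7105.28. ACTN1, an actin cross-linker, had 1219 reads for PB.18155.87 and PPP4R3B, a subunit of protein phosphatase 4, had 825 for PB.12348.5. These last isoforms are taken up again with the RNA-seq data, where neither was listed.

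The share of noncanonical among NNC isoforms seen in a library, counted from 1 read, lay between 10.4% and 12.8% in all 10 Iso-seq libraries. Testis had 10.4% in BMI and 10.6% in DSE, and the other glands 10.5% to 12.8%. The testis mean was 1.19 points lower than that of the other libraries, a difference that did not pass (exact permutation test, two-sided, 45 arrangements, p = 0.0667). It was 1.9 points (exact permutation p = 0.0222) when reads were subsampled to the smallest library. DSE minus BMI averaged -0.717 points over the 5 glands, with a range from -2.38 to 0.238 and an exact sign-flip p of 0.25, where 0.0625 is the smallest possible.

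Several RNA-seq libraries stood apart from their group. The BMI prostate gland replicate 2 had 301319 TPM of 4 spermadhesin-type markers of the vesicular gland (PSP-I, PSP-II, AWN and SPMI, all 4 detected), where the other prostate libraries had at most 19.6 and the vesicular gland libraries 370695 to 496295. The DSE epididymis replicate 1 had the lowest mean correlation with the other libraries of its breed and gland, 0.688. The study also gives it the lowest transcript integrity, a measure of RNA quality, of all RNA-seq libraries. The part of RNA quality in its levels was not tested. The DSE testis replicate 2 lay low for several testis isoforms named below and had the lowest such correlation of the testis libraries, 0.835. In epididymis, replicate 1 of BMI had 5383 TPM of the vesicular markers against 2293 of 5 epididymis markers, and 562 of skeletal muscle markers. DSE epididymis replicate 2 had 1094 TPM of the vesicular markers and BMI epididymis replicate 2 had 970.0 of testis markers. The part of these markers in the epididymis results was not tested. Results that moved when a library was left out are given with both values. Testis, epididymis, vesicular and prostate gland libraries otherwise expressed the defining markers of their gland, and no marker was listed for the bulbourethral gland.

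How well RNA-seq supported the isoforms was first asked by whether they had any TPM. Short reads were assigned to isoforms by similarity to their whole sequence, so a TPM above 0 does not by itself show a read that crosses the noncanonical junction, and reads shared with other isoforms of the gene are divided by the model. No transcript in the table was at 0 in all libraries. The table held 4748 of the 5576 isoforms (85.2%, interval 84.2 to 86.1) and 95.2% of the canonical isoforms, so 828 noncanonical isoforms were not listed. A level of 1 TPM or more in 3 or more libraries was reached by 2039 isoforms (36.6%) against 54.7%, and a value above 0 in all 30 libraries by 341 (6.12%) against 8.75%. By the RTS mark, 86.9% of marked and 84.9% of unmarked isoforms were listed.

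In a single library, 31.2% of the noncanonical isoforms were detected (SD 2.95, n = 30, range 26.8% to 38.6%) against 46.1% of the canonical ones (SD 6.76), with isoforms that were not listed counted as not detected. The difference was -15 percentage points, with a range from -24.0 to -6.95, and it was negative in 30 of 30 libraries (permutation sign-flip test, two-sided, p = 1e-05, the smallest that 100000 resamples give). The libraries share the same isoforms, so this test covers libraries and not isoforms. Among listed isoforms alone the difference was -11.8 points (permutation p = 1e-05). By gland it was -22.1 points in testis and between -13.3 and -13 in the other 4 glands, each with all 6 libraries below 0 and an exact p of 0.0312, the smallest that 6 libraries allow. The testis difference was larger than that in the other 24 libraries (-22.1 against -13.2, exact permutation test, two-sided, p = 3.37e-06, the smallest possible), and the ranges did not overlap. The noncanonical isoforms themselves were detected most in testis, a mean of 35.9% against 28.2% to 31.9% in the other glands. The canonical NNC isoforms were at 58.0% against 41.3% to 45.2%. A further set, NIC isoforms, used annotated splice sites alone, all canonical, with NMD predicted false. They were detected at 54.8% to 59.6% in testis libraries and 49.5% to 61.4% in the others.

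**Figure D2:**
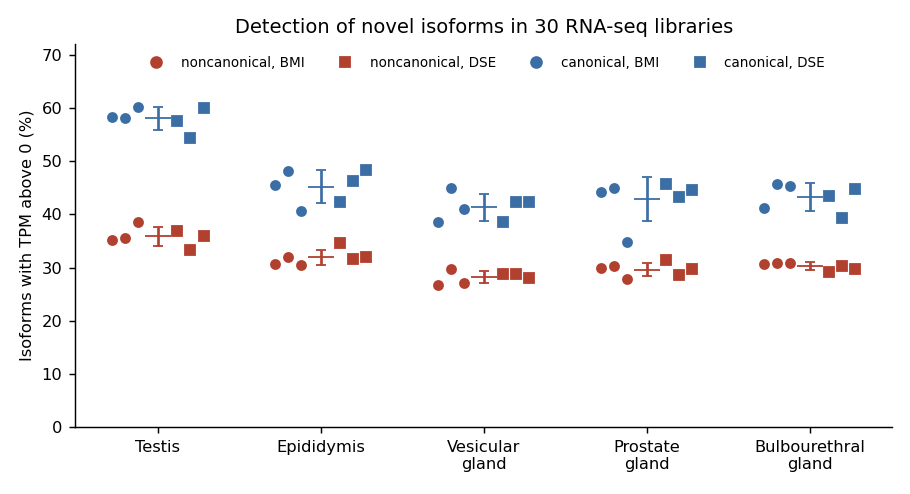
Share of isoforms with TPM above 0 (%) in each of 30 RNA-seq libraries by gland, noncanonical in red and canonical NNC isoforms in blue, circles BMI and squares DSE, with the mean and SD of the 6 libraries of a gland. In every library the noncanonical isoforms lie below the canonical ones, by -24.0 to -6.95 points.

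The difference was present at every level of Iso-seq reads. Within isoforms of 2 reads, 30.5% of the noncanonical and 40.0% of the canonical isoforms were detected per library, a difference of -9.51 points. The difference was -12.8 points for 3 to 5 reads, -17.1 for 6 to 10 and -22.2 for over 10, each negative in 30 of 30 libraries (permutation p = 1e-05 in each class, adjusted over 4 classes 1e-05). Detection of the noncanonical isoforms went from 30.5% to 36.2% across these classes and that of the canonical isoforms from 40.0% to 58.4%. With at least 1 TPM as the criterion, the class of 2 reads differed by -1.07 points (permutation p = 0.0993), and the other classes kept their calls.

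**Figure D3:**
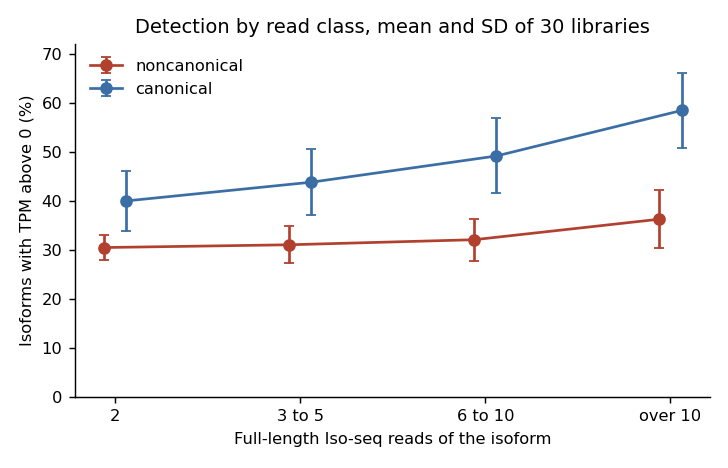
Share of isoforms with TPM above 0 (%), mean and SD of 30 RNA-seq libraries, by the number of full-length reads of the isoform, noncanonical in red and canonical NNC isoforms in blue. The noncanonical isoforms go from 30.5% to 36.2% and the canonical isoforms from 40.0% to 58.4%.

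An isoform was found more often where its reads came from. Of noncanonical isoforms with full-length reads in a breed and gland, a mean of 57.0% had TPM in at least 1 of its 3 RNA-seq libraries (range over the 10 breed and gland pairs 50.6% to 63.8%), against 43.3% of those without reads there. For canonical isoforms the shares were 81.8% and 55.8%. The step was thus 13.7 points for the noncanonical isoforms, between 10.3 and 19.3, and 26.0 for the canonical ones, between 22.1 and 29.7. All 3 libraries had TPM for 26.2% of the noncanonical isoforms with reads there and for 48.7% of the canonical ones.

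By TPM above 0, detection ran from 27.0% to 39.3% between kinds of noncanonical intron. Isoforms whose single noncanonical intron had a motif 1 base from a canonical one were detected at 34.2% per library (SD 4.85, n = 30), and those with a more distant motif at 30.6% (SD 2.11). Both ends at annotated sites gave 37.4% (131 isoforms) and both ends in annotated exons 27.0% (2023 isoforms). Isoforms whose gap was under 30 bp, 63.8% of which had the RTS mark, were detected at 39.3% (47 isoforms). RTS-marked isoforms as a whole were at 35.1% and unmarked ones at 30.6%. At 1 TPM or more in 3 or more libraries the order was different. Gaps under 30 bp were lowest at 27.7%, and both ends at annotated sites were highest at 48.1%. A motif 1 base from a canonical one gave 41.9%, a more distant one 36.4% and both ends in annotated exons 38.1%. By this criterion RTS-marked isoforms were at 37.1% and unmarked ones at 36.5%. These are descriptions over the same libraries. A gap of few bases leaves the isoform almost identical in sequence to its neighbours, and how reads were divided between them was not tested.

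Abundant full-length reads did not guarantee TPM. Of the 55 isoforms with at least 100 reads, 7 were not listed, and they were named after their values were seen. Of the canonical NNC isoforms with at least 100 reads, 32 of 1067 had no TPM. ACTN1 had 2 of them, PB.18155.87 with 1219 and PB.18155.94 with 846 reads, with 55.1% and 38.2% of the reads of the gene, while the gene as a whole had a mean of 84.6 TPM. PPP4R3B PB.12348.5 had 825 reads and 76.2% of the reads of a gene with a mean of 29.4 TPM. The other 4 were PRRC1 with 397 reads, the growth factor receptor FGFR3 with 192, EDEM1 of endoplasmic reticulum quality control with 190, and LMF1, a lipase maturation factor, with 169. Their genes had mean levels between 35.4 and 45.6 TPM. All 7 isoforms had reads in at least 8 of the 10 Iso-seq libraries. Whether an isoform that is not listed was quantified at 0 is not given in the sources used here.

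Several of the highest TPM values stood on few long reads, though not all. EDDM13, an epididymal secretory protein, had 248 mean TPM for PB.16046.4 with 336 reads, and 6619 TPM of it in the DSE epididymis replicate 1 alone, which stood apart. AKR1C8, an aldo-keto reductase with close relatives, had 173 mean TPM with 10 reads and the RTS mark. PPP1R1B, an inhibitor of protein phosphatase 1, had 166 with 2 reads, and PDIA3, a protein disulfide isomerase, 141 with 8 reads. Over all isoforms of the gene, reads were also few for PPP1R1B, with 287 mean TPM and 10 reads, and AKR1C8, with 262 and 38. PDIA3 had 534 mean TPM and 3588 reads. The isoform with the highest mean of all, PB.15673.87 of an unnamed gene, had 972 TPM and 2 reads. It was chosen after its value was seen, its intron was CT-AC, and its prostate gland values ran from 641 to 4744.

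Read and TPM levels were weakly related across isoforms. Over isoforms with reads in a gland, Spearman's rho between full-length reads and mean TPM was 0.241 in testis (n = 2610) and 0.0980 to 0.127 in the other glands, against 0.462 and 0.332 to 0.376 for canonical isoforms. Isoforms are not independent replicates, and these values are descriptions. Within its gene, a noncanonical isoform held a median of 1.82% of the full-length reads and 0.447% of the TPM, against 3.92% and 2.26% for a canonical isoform. At least 10% of both the reads and the TPM of the gene were held by 491 noncanonical isoforms. A share of a gene does not measure how many reads stand behind it, and PPP1R1B PB.3574.3 and MMD2 PB.11539.23, with 2 reads each, were among them. The isoforms with at least 10% of the reads and under 1% of the TPM numbered 377, and the opposite case, under 1% of the reads and at least 10% of the TPM, 96.

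The gland of the reads and the gland of highest TPM were often the same for testis and seldom for the prostate gland. Of 2422 noncanonical isoforms with reads from 1 gland, 2094 had TPM, and 58.4% (interval 56.3 to 60.5) had their highest mean TPM in that gland, against 74.5% of canonical isoforms. The share was 76.8% for testis, 55.7% for epididymis, 41.4% for the bulbourethral gland, 25.1% for the vesicular gland and 16.8% for the prostate gland. Of all listed noncanonical isoforms, 32.3% had their highest mean in testis and 12.0% in the prostate gland. Among isoforms of 5 or more reads the overall share was 88.8%, with no canonical share or share by gland given for that minimum.

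The noncanonical isoforms together took a mean of 1.54% of all TPM. In tissue samples, fewer cells of a type and less RNA per cell cannot be told apart, here and in the comparisons that follow. The vesicular gland had the lowest sum, 8301 TPM (SD 1265, n = 6, range 6995 to 10533), and only the BMI prostate gland replicate 2, with 8474, fell within that range among the other 24 libraries. Testis had 17925 (SD 2469), epididymis 18306 (SD 7073), prostate gland 13307 (SD 3300) and bulbourethral gland 19300 (SD 2994). The vesicular gland was lower by 1.02 on the log2 scale than the mean of the other libraries (exact permutation test, two-sided, p = 5.05e-06, adjusted over 5 glands 2.53e-05). This call was lost when libraries were scaled by median-of-ratios size factors (-0.27, exact permutation, adjusted p = 0.425), and the spermadhesin markers alone held 370695 to 496295 TPM there, which is a large share of the total to which TPM is scaled. The bulbourethral difference of 0.50 did not pass (exact permutation, adjusted p = 0.1), nor did those of testis, epididymis and prostate gland.

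**Figure D4:**
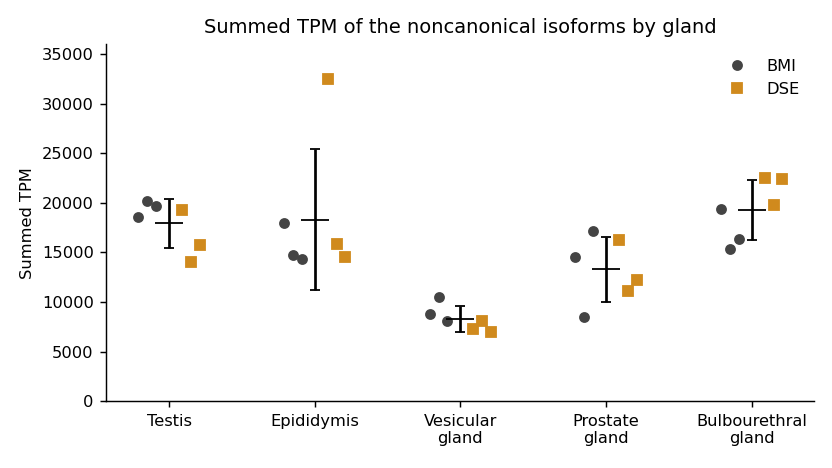
Summed TPM of the noncanonical isoforms in each of 30 RNA-seq libraries by gland, circles BMI and squares DSE, with the mean and SD of 6 libraries. The vesicular gland libraries lie at 6995 to 10533 TPM, and the DSE epididymis replicate 1 stands at 32480.

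Between breeds no difference in the sums passed the test, and within a gland 3 against 3 libraries are too few to pass it. Pooled over glands, DSE minus BMI was 0.03 on the log2 scale (permutation within glands, p = 0.810). In the bulbourethral gland the 3 DSE libraries, 19751 to 22545 TPM, all lay above the 3 BMI libraries, 15326 to 19365, with an exact p of 0.1, the smallest that 3 against 3 allow. In the epididymis the DSE mean of 20950 rested on replicate 1, and the difference of 0.33 became -0.04 without it.

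The gland differences of single isoforms were tested with limma on log2(TPM + 1) over the 64661 transcripts that reached 1 TPM in 3 libraries or more, 2039 of them noncanonical, and called at an adjusted p under 0.05 and at least 1 on the log2 scale against the mean of the other glands. The filter keeps an isoform that is high in 1 group only, so the calls describe these 2039. In testis 509 were higher and 222 lower, and 28.4% of all tested transcripts were called higher there and 9.54% lower. The 509 were 25% of the noncanonical isoforms, against 37.2% of the canonical ones tested. In epididymis 197 were higher and 82 lower, with a background of 9.65% and 4.4%. The vesicular gland had 56 higher and 209 lower (background 2.49% and 13.4%), the prostate gland 61 and 121 (2.61% and 6.57%), and the bulbourethral gland 140 and 108 (6.37% and 6.48%). As shares of the 2039, the higher calls outside testis were 9.66%, 2.75%, 2.99% and 6.87%, close to the background in each gland. At least 1 gland call was made for 1005 (49.3%), and 51.6% of all transcripts had one.

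The counts depended on the settings. A pseudocount of 0.1 gave 89 higher and 483 lower in the vesicular gland, 99 and 276 in the prostate gland, 617 and 380 in testis, 276 and 207 in epididymis, and 198 and 278 in the bulbourethral gland. A filter of 1 TPM in 6 libraries gave 324 higher in testis, and the higher calls in the prostate gland were 38 without replicate 3. With size factors the epididymis had 122 higher and 108 lower, the vesicular gland 112 and 120, and the bulbourethral gland 104 and 131. This scaling moved the median of all tested transcripts by -0.23 in epididymis, 0.19 in the vesicular gland and -0.11 in the bulbourethral gland on the log2 scale. The direction in which more isoforms were called turned in the bulbourethral gland under this scaling and under the smaller pseudocount.

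Full-length reads did not enter the test. Of all reads of the isoforms called higher in a gland, 81.5% came from that gland for testis, 80.3% for epididymis, 53.8% for the vesicular gland, 44.7% for the bulbourethral gland and 22.8% for the prostate gland. Of the reads of all noncanonical isoforms, 25.4%, 32.7%, 11.6%, 18.1% and 12.2% came from these glands, in the same order. The epididymis value rested on ADAM7 PB.5719.3, and without it 47.3% of the reads came from epididymis. The 32.7% over all noncanonical isoforms still includes PB.5719.3, so the 47.3% is not directly comparable with it. Without the isoform of most reads, the values were 79.1% in testis, 46.5% in the vesicular gland, 47.6% in the bulbourethral gland and 31.8% in the prostate gland. Counted by isoforms with any reads there, of the 509 isoforms called higher in testis, 456 (89.6%) had reads there. The counts were 152 of 197 in epididymis, 40 of 56 in the vesicular gland, 106 of 140 in the bulbourethral gland and 28 of 61 (45.9%) in the prostate gland. All 6 libraries of the gland lay above all 24 others for 254 of the isoforms called higher in testis, 20 in epididymis, 4 in the vesicular gland, 1 in the prostate gland and 20 in the bulbourethral gland, and among all tested transcripts the shares were 16.1%, 1.39%, 0.241%, 0.11% and 0.96%.

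In testis, YBX2, an RNA-binding protein of germ cells that stores messages, had the largest change among these. Its isoform PB.3917.207 had 527, 806 and 730 TPM in BMI and 714, 143 and 440 in DSE, against at most 8.79 elsewhere (log2 fold change 7.79, SE 0.35, adjusted p 5.69e-16). It had 3 reads, all from testis. AKAP1 PB.3655.40, with the annotated GT-TA intron, had 174, 176 and 178 TPM in BMI and 176, 46.4 and 158 in DSE. Elsewhere it was 0 in 22 of 24 libraries and at most 2.61 (7.02, SE 0.23, adjusted p 1.23e-18), and both methods placed it in testis. CCER1, a glutamate-rich protein of spermatids, had 41.7 to 198 TPM in testis for PB.15049.4 and at most 0.411 elsewhere (7.01, SE 0.17, adjusted p 1.25e-20). This RTS-marked isoform had 2 reads, and its gap lay in a stretch of GAG triplets with a 9-bp repeat. RNF40 PB.11791.1 had 26.5 to 88.1 TPM in testis and 0 to 19.0 elsewhere (2.52, SE 0.36, adjusted p 1.59e-06), and DGCR2 PB.6174.26 was at 0 in 5 of 6 testis libraries and 13.3 to 81.1 elsewhere (-4.74, SE 0.46, adjusted p 2.22e-09), although 71 of its reads came from the BMI testis and 62 from the DSE testis. The DSE testis replicate 2 was the lowest library for YBX2, AKAP1, CCER1 and RNF40 and the only testis library with DGCR2.

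In epididymis, ADAM7 PB.5719.75, which shares the intron with the 3042-bp repeat and had 134 reads, all from epididymis, had 149, 680 and 1045 TPM in BMI and 160, 137 and 649 in DSE, and at most 0.0548 elsewhere (8.40, SE 0.27, adjusted p 5.01e-17). How reads from the copies of the repeat were divided between ADAM7 isoforms was not tested. EDDM13 PB.16046.5 had 0.500 to 367 TPM in 5 libraries and 5466 in the DSE epididymis replicate 1 (5.26, SE 0.99, adjusted p 0.000176). Of its 255 reads, 253 came from the DSE epididymis. MMD2, of the progestin and adipoQ receptor family, had 6.29 to 48.3 TPM for PB.11539.23 and at most 0.0661 elsewhere (4.40, SE 0.21, adjusted p 1.81e-13), with 2 reads, 1 from the epididymis of each breed.

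In the vesicular gland, the isoforms chosen by gene symbol were of its secreted spermadhesins, which coat sperm and come from a family of similar genes. An isoform of a gene with no symbol, PB.11472.56 of ENSSSCG00000029257 on chromosome 2, named after its values were seen, had 1908, 1838.5 and 1582 TPM in BMI and 1275, 1990 and 1539 in DSE. It was at most 948 elsewhere, in the BMI prostate gland replicate 2 (8.31, SE 0.69, adjusted p 4e-09). SPMI, the sperm motility inhibitor, had 28.2 to 145 TPM for PB.6870.9 (5.6, SE 0.36, adjusted p 7.54e-11). PSP-I had 5.08 to 11.3 TPM for PB.6866.123 (3.14, SE 0.22, adjusted p 3.29e-10), where the noncanonical junction was a gap of 1 bp with the RTS mark. Outside the vesicular gland the SPMI and PSP-I isoforms were highest in the BMI prostate gland replicate 2, at 12.9 and 4.55 TPM, the library with the vesicular markers. These isoforms were 0.0548% and 0.00358% of the TPM of their genes. The 1 prostate gland isoform was DDX39B PB.17436.17, of an RNA helicase of splicing and mRNA export, with 9.93 to 18.3 TPM against at most 7.81 elsewhere (2.22, SE 0.40, adjusted p 0.000136). Neither of its 2 reads came from the prostate gland.

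In the bulbourethral gland, FAM177B PB.2273.1 was placed by both methods. It had 29.3, 43.4 and 29.1 TPM in BMI and 68.7, 34.4 and 42.4 in DSE, and at most 5.33 elsewhere (4.77, SE 0.22, adjusted p 2.24e-14). Of its 288 reads, 84 came from the BMI and 182 from the DSE library of this gland, and it held 87.5% of the reads and 77.3% of the TPM of its gene. Its TT donor lay 9 bases from an annotated donor and its AG acceptor was annotated. CPD, a carboxypeptidase of the secretory pathway, had 26.7 to 48.4 TPM for PB.3769.13 and at most 15.5 elsewhere (3.93, SE 0.57, adjusted p 7.7e-06). IGHM, the heavy chain of immunoglobulin M, had 58.2 to 1317 TPM for PB.20773.4 (6.76, SE 0.57, adjusted p 2.74e-09). It lies on a sequence outside the numbered chromosomes, whose introns were not read here, and in B cells this locus is rearranged at the DNA level. The summed TPM of 4 immune markers, all 4 detected, was 22.3 to 293 in this gland and at most 48.1 in the others, and their part in the IGHM level was not tested.

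Breed differences were called for 152 of the 2039 isoforms (7.46%) in at least 1 gland, and for 6.35% of all tested transcripts. In testis 28 were higher and 87 lower in DSE (background 4.97% in either direction). The 87 became 65 without the DSE testis replicate 2 and 20 without replicate 2 of both breeds and all glands. Both directions together, the 115 calls in testis became 73, 45 and 74 when replicate 1, 2 or 3 was left out. The other glands had few calls: 9 higher and 16 lower in epididymis (background 0.713%), 5 and 13 in the vesicular gland (0.333%), 8 and 9 in the prostate gland (0.453%) and 6 and 14 in the bulbourethral gland (0.435%). Without replicate 3 the calls were 7 in the vesicular gland, 6 in the prostate gland and 6 in the bulbourethral gland, and in the vesicular gland they were 6 without replicate 1 and 9 without replicate 2. With the filter of 6 libraries they were 51 in testis and 16 in epididymis. No isoform was called in opposite directions in different glands. Higher levels in BMI in all 5 glands were called for MANSC1, FTSJ1 and PRRC2B (3 isoforms, background 0.0217%) and higher levels in DSE for EEF1AKMT1 (1, background 0.0201%). The testis call of MANSC1 was lost without replicate 2 or 3 (-1.55 and -1.42 against -1.65 with all libraries, adjusted p from limma 0.0956 and 0.123) and the vesicular gland call of EEF1AKMT1 without replicate 1 (2.89 against 2.92, adjusted p 0.0511).

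The full-length reads came from separate libraries. Of the 195 calls, 162 were in isoforms with reads in that gland, and the called breed had more reads in 119 (73.5%), as many in 17 and fewer in 26. In testis, 21 of the 23 isoforms called higher in DSE with reads there had more reads in DSE, and 52 of the 82 called higher in BMI (63.4%) had more reads in BMI, 12 as many and 18 fewer. In epididymis, 2 of 7 called higher in DSE had more reads in DSE, and 12 of 13 called higher in BMI had more in BMI. Summed over all isoforms, the epididymis Iso-seq library of DSE had 231413 reads and that of BMI 458697. These sums are not the totals sequenced, and the counts here were not scaled for depth.

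A set of 8 isoforms separated the breeds completely, over all 5 glands. All 15 BMI libraries lay above all 15 DSE libraries for 6 isoforms, against 0.0356% of all tested transcripts, and the reverse held for 2, against 0.0572%. ADI1, FTSJ1 and HSF2BP in this set fell outside the naming rule and were named after their values were seen. PRRC2B, an RNA-binding protein of translation, was the clearest. Its isoform PB.2174.143 had 7.79 to 40.9 TPM in BMI with a median of 19.8, and 0 in all 15 DSE libraries. It held 30.5% of the TPM of its gene, it was RTS-marked, and both of its full-length reads were from BMI. Its intron starts in the CAG run shown above, and the length of this run in the breeds was not tested.

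MANSC1, a single-pass membrane protein, had 0.973 to 73.2 TPM for PB.14720.4 in BMI. In DSE it was 0 in 14 of 15 libraries and 0.478 in the other. The difference was largest in the bulbourethral gland, where BMI had 34.8, 70.0 and 73.2 (DSE minus BMI -5.84 on the log2 scale, SE 0.32, adjusted p from limma 3.01e-11). All 88 full-length reads were from BMI, 78 of them from the bulbourethral gland. ADAM17, the sheddase that releases TNF, had 0.651 to 10.9 TPM for PB.12741.7 in BMI and 0 in 14 of 15 DSE libraries, with 15 reads from BMI and none from DSE. FTSJ1, a tRNA methyltransferase, had 0.976 to 7.69 TPM for PB.21249.7 in BMI and at most 0.409 in DSE, with 7 reads against 0. ADI1, of methionine salvage, had 2.05 to 8.45 for PB.12768.25 against 0 to 1.11, with 3 reads against 0. HSF2BP, a meiotic recombination factor, had 1.24 to 6.39 for PB.5645.1 against 0 to 1.10, with 5 reads against 1. The groups are close for these last isoforms: the lowest BMI library of HSF2BP was at 1.24 and the highest DSE library at 1.10.

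Higher in DSE were EEF1AKMT1, a methyltransferase of an elongation factor, and IFT88, an intraflagellar transport protein needed for cilia and sperm tails. EEF1AKMT1 PB.2816.15 had 2.37 to 15 TPM in DSE and at most 0.311 in BMI, with 13 of 15 BMI libraries at 0 and 3 reads, all from DSE. IFT88 PB.2810.14 had 0.132 to 14.6 in DSE and 0 in all 15 BMI libraries. It was called in testis alone, where DSE had 8.44, 5.67 and 14.6 (3.31, SE 0.49, adjusted p 4.69e-05), and 26 of its 30 reads were from DSE. The other 4 reads came from the BMI prostate gland, where its TPM was 0 in all 3 libraries.

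**Figure D5:**
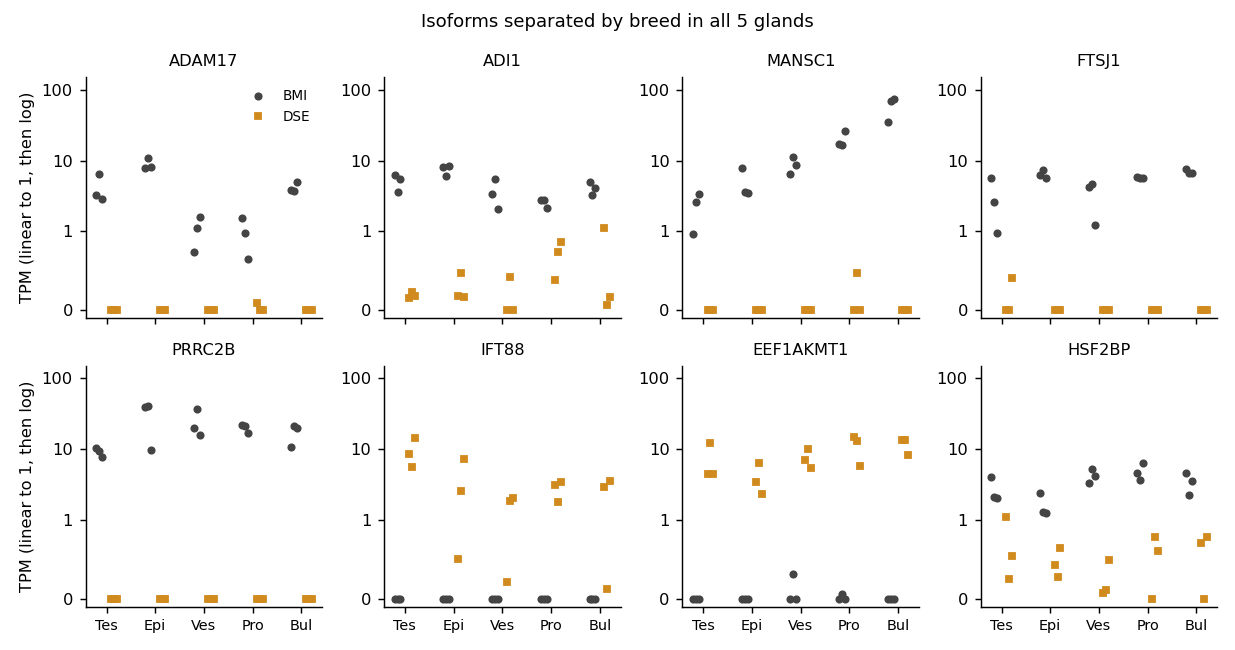
TPM (linear up to 1, logarithmic above) of 8 noncanonical isoforms in each of 30 RNA-seq libraries, by gland (Tes testis, Epi epididymis, Ves vesicular, Pro prostate, Bul bulbourethral gland), circles BMI and squares DSE. In each panel the 15 libraries of one breed all lie above the 15 of the other; PRRC2B is at 0 in all DSE libraries and IFT88 in all BMI libraries.

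Within single glands, the non-overlapping calls named by the rule were of similar kinds. C1orf141 PB.16831.17 had 19.4, 22.6 and 28.7 TPM in the BMI testis and 0 in the 3 DSE testis libraries (-4.60, SE 0.14, adjusted p 3.4e-17). Its 68 reads were all from BMI, 67 of them from testis. ST6GALNAC1, a sialyltransferase that acts on mucins, had 56.2, 13.7 and 22.7 TPM for PB.3419.139 in the DSE bulbourethral gland and 0 in the BMI one (4.76, SE 0.33, adjusted p 2.03e-09), with 6 reads from the DSE bulbourethral library alone. PTGR2, a prostaglandin reductase, had 13.9, 25.9 and 23.7 TPM for PB.18191.14 in the BMI vesicular gland against 0, 0.832 and 1.55 (-3.68, SE 0.40, adjusted p 1.13e-05), with 25 reads against 0 there. PWWP3B PB.21510.51 was higher in DSE in testis, 5.04 to 25.3 against 0 to 1.43, and in epididymis, 7.06 to 9.33 against 0.

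Other calls of this kind were lost when the libraries of 1 replicate number were left out of all groups. HNRNPA2B1, a splicing regulator, had 13.4, 25 and 13 TPM for PB.9728.71 in the BMI testis and 0 in DSE (log2 difference -4.12, adjusted p 0.00169, and -3.83 with 0.168 without replicate 2), and its 4 reads came from other glands. FN1, fibronectin, had 279, 33.4 and 46.4 TPM for PB.7849.173 in the DSE vesicular gland against 0 to 4.06 (4.90, adjusted p 0.002, and 3.29 with 0.309 without replicate 1). CAP2, an actin-regulating protein, was higher in the DSE epididymis, 4.42 to 14.7 against 0 to 1.79 TPM (2.48, adjusted p 0.00473, and 1.74 with 0.249 without replicate 2). DNAJC3, a chaperone of the endoplasmic reticulum, was higher in the DSE prostate gland, 7.01 to 13.4 against 0 TPM (3.52, adjusted p 0.00675, and 3.36 to 3.78 with up to 0.207 when 1 replicate was left out).

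The members of set gene lists are described by their counts. Genes of gland secretion held 99 noncanonical and 103 canonical NNC isoforms, so 49.0% were noncanonical, against 14.4% over all genes, and 42 of the 99 were from ADAM7 and 36 from FN1. Contractile and matrix genes held 61 and 92 (39.9%), with COL6A1 contributing 10. Splicing regulators held 79 and 403 (16.4%), of which 28 were of HNRNPU. Flagellum and acrosome genes held 27 and 204 (11.7%) and meiosis genes 9 and 92 (8.91%). In RNA-seq, 41 of the 99 secretory isoforms were tested, and 21 were higher and 4 lower in epididymis (9.65% and 4.4% of all tested transcripts), 14 higher and 4 lower in the vesicular gland (2.49% and 13.4%), 2 higher and 10 lower in testis (28.4% and 9.54%) and 0 higher and 7 lower in the bulbourethral gland (6.37% and 6.48%). Isoforms of 1 gene can share reads and are not independent. Of the 24 contractile and matrix isoforms tested, 11 were higher and 0 lower in epididymis, and 0 higher and 11 lower in testis, against the same shares of all transcripts. The 5 smooth muscle markers, all detected, summed to 843 to 13622 TPM in epididymis and 40.7 to 76.7 in testis, and their part in these calls was not tested. Of the 6 flagellum and acrosome isoforms tested, 5 were higher in testis, where 28.4% of all transcripts were.

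The minor spliceosome list held 4 noncanonical isoforms, all of DROSHA, which cuts microRNA precursors and is not a spliceosome component. In 3 of them the same AT donor was joined to an annotated AG acceptor, a pair that the canonical set does not include, and the one with most reads, PB.8159.6, had 4 reads and 1.25 mean TPM. XBP1, the transcription factor of the unfolded protein response, had 2 noncanonical isoforms. PB.6095.7, with the AT-AG intron shown above, had 22 reads, 4 from the BMI and 9 from the DSE bulbourethral gland. Its TPM there was 1.94, 3.45 and 4.73 in BMI and 9.10, 9.32 and 5.68 in DSE, and 0 to 4.17 elsewhere (1.70, SE 0.20, adjusted p from limma 5.04e-07). It held 0.654% of the TPM of its gene. PB.6095.5 had 3 reads and at most 0.349 TPM.

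The RTS-marked isoforms with most reads differed in their TPM. After CKM, PB.20773.7 of IGHM had 255 reads and a mean of 1.13 TPM, with 0, 8.02 and 9.46 in the BMI and 1.97, 2.55 and 9.66 in the DSE bulbourethral gland and at most 1.22 elsewhere. ALDH18A1, of proline synthesis, had 130 reads for PB.6660.10 from 8 libraries and 75.1% of the reads of its gene, and TPM above 0 in 1 library. ADAM7 PB.5719.51 had 97 reads and was not listed, and TM9SF3 PB.6671.12 had 61 reads and 48.4, 44.0, 25.9, 12.6 and 2.90 TPM in 5 libraries and 0 in the other 25. Among the genes with most noncanonical isoforms, FN1 had 36 with at most 10 reads each and CPEB2, a regulator of polyadenylation, had 30 with at most 18 reads. The leading CPEB2 isoform, RTS-marked with an 11-bp repeat in a stretch of CCG triplets, was not listed either.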

How the data were processed

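Each isoform has a count of full-length reads in each Iso-seq library. The authors clustered the PacBio reads, aligned them to Sscrofa11.1, collapsed them to isoforms and classified these with SQANTI3, and the counts were deposited without normalization. The share of A after the 3′ end is a percent that SQANTI3 computed for the authors. The TPM values were deposited by the authors as made with salmon on the merged annotation of Ensembl and Iso-seq transcripts. The submitters' processing notes name GSNAP, STAR 2.7.10a, Salmon 1.9.0 and Bowtie 1.3.1, and the study's methods state that STAR removed unannotated junctions with noncanonical motifs. By the same methods STAR was given the merged annotation, which includes the NNC isoforms, so their junctions counted as annotated. The labels name rRNA depletion for RNA-seq where the methods name poly-T beads. Small RNA files were not used here.

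Full-length reads summed over all isoforms were 231413 to 458697 per library, which is not the total sequenced. The number of RNA-seq reads behind a TPM value is unknown. Intron ends were read from the genome with the deposited transcript coordinates. Annotated sites are those of Ensembl transcripts in the merged annotation. Shares have Wilson 95% intervals for counting error only. Libraries were compared by exact tests or 100000 permutations, two-sided. Transcripts that reached 1 TPM in 3 libraries were fitted as log2(TPM + 1) with limma 3.58.1 in R 4.3.3, all 30 libraries in 1 model of breed and gland. A call needed a Benjamini-Hochberg adjusted p under 0.05 over all transcripts and a log2 fold change of 1. Fold changes on this scale understate those of low transcripts. The fit was tested on simulated data.

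Named isoforms are the 10 with most reads and the 5 of highest mean TPM from different genes with a symbol, up to 3 per gland and 2 per breed, direction and gland among calls whose libraries do not overlap, the leading isoforms of the 3 genes with most members, the 5 RTS-marked ones with most reads, and up to 5 of 3 gene lists. The isoforms and lists were chosen with earlier results of these data known. Replicate numbers were not taken to pair libraries. Alternatives were other pseudocounts, filters, scaling, detection levels, read minimums, a replicate block and libraries left out. The result of 1 isoform chosen by the naming rule is not reported here.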

Additional observations from a re-analysis of the deposited data

Results flagged for a closer look

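Within groups of 6 RNA-seq libraries, and for the RTS share over the 10 Iso-seq libraries, 28 sets of values were searched for a library far from the rest. For normally distributed values, which TPM of chosen isoforms need not be, chance alone sets 1 apart in about 1 of 20 such sets. A library stood apart in 6. The summed TPM of the noncanonical isoforms in the DSE epididymis replicate 1 was 32480, with the other epididymis libraries at 14330 to 17951. EDDM13 PB.16046.5 had 5466 TPM in that same library and 0.500 to 367 in the others. In the BMI prostate gland replicate 3, detection of noncanonical isoforms was 6.95 points below that of canonical ones (-6.95), where the other prostate libraries had -14.9 to -14.3. In each gland the smallest such difference was in the library to which the study gives the lowest transcript integrity, a measure of RNA quality. The part of RNA quality in this difference was not tested. AKAP1 PB.3655.40 had 46.4 TPM in the DSE testis replicate 2 and 158 to 178 in the other testis libraries. FAM177B PB.2273.1 had 68.7 TPM in the DSE bulbourethral gland replicate 1 and 29.1 to 43.4 in the rest of that gland. SPMI PB.6870.9 had 145 TPM in the DSE vesicular gland replicate 3, against 28.2 to 63.9.

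The difference in detection between noncanonical and canonical isoforms itself differed between glands. It was -22.1 points in testis, with 6 libraries between -24.0 and -20.5, and -13.2 in the other 24 libraries, between -16.3 and -6.95. Testis minus the other glands was -8.98 points (exact permutation test, two-sided, n = 30 libraries, p = 3.37e-06, the smallest possible). Detection of the noncanonical isoforms was itself highest in testis, a mean of 35.9%. That of the canonical ones was 58.0% in testis and at most 45.2% in the other glands.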

How the results depend on the processing

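Of 350 summary values under alternatives, 309 kept their direction and side of the threshold or lay within 1.5 times the count, among them every RTS difference and every detection difference but 1. Where a value changed, the cause was not tested. The testis difference in the noncanonical Iso-seq share was -1.90 points with reads subsampled and -2.47 with non-coding isoforms added (exact permutation p = 0.0222 in both). Detection of 2-read isoforms differed by -1.07 points at 1 TPM. Agreement of gland was 88.8% from 5 reads and 55.7% with non-coding isoforms.

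For summed TPM on the log2 scale, leaving out the 10 highest isoforms gave 0.62 in testis and 0.56 in epididymis (exact permutation, adjusted p = 0.0290 and 0.0444). Size factors gave -0.18 in epididymis and -0.27 in the vesicular gland. Between breeds size factors gave 0.23 in the vesicular gland and -0.45 in the prostate gland. Leaving out the BMI prostate gland replicate 2 and the DSE epididymis replicate 1, chosen after seeing the data, gave 0.53 for the bulbourethral gland (adjusted p = 0.0377, exact permutation), and between breeds -0.038 in epididymis, -0.28 in the prostate gland and -0.10 over all glands. Over this setting and those that leave out 1 replicate, values ran from 0.47 to 0.53 for the bulbourethral gland, and between breeds -0.038 to 0.48 in epididymis, -0.28 to 0.28 in the prostate gland and -0.10 to 0.10 over all glands.

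For gland calls, a filter of 6 libraries gave 324 higher in testis. A pseudocount of 0.1 gave 380 lower in testis, 207 lower in epididymis, 89 higher and 483 lower in the vesicular gland, 99 and 276 in the prostate gland and 278 lower in the bulbourethral gland. Size factors gave 122 higher in epididymis, and 112 higher and 120 lower in the vesicular gland. Higher calls in the prostate gland ran from 38 to 75 with libraries left out. For breed calls, the filter gave 51 in testis and 16 in epididymis. With libraries left out, the calls ran from 45 to 115 in testis, 6 to 18 in the vesicular gland, 6 to 26 in the prostate gland and 6 to 23 in the bulbourethral gland.

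With the replicate number as a block, testis had 511 higher and 223 lower calls and 120 breed calls. Between glands of a breed, same-numbered libraries had a median correlation of deviations of 0.0449, over 0.1 in 18 of 60 pairs, and differently numbered ones -0.0131, in 23 of 120. Between breeds of a gland the same-numbered median was -0.0634. Not every library correlated best with its own number (14 of 30 did), so the numbers were not taken as pairing. Of 136 calls of named isoforms, 99 were kept in all 10 settings, 37 were lost in at least 1 and 0 reversed. Of the noncanonical isoforms 59.9% had 2 full-length reads, and of the canonical ones 37.8%.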
